A study of Mus musculus with 36 samples.

Results

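Krüppel-like factors (KLFs) are transcription factors with a zinc finger DNA-binding domain, and 10 of their genes were followed here by name in the transcriptome of C2C12 myotubes: *Klf2*, *Klf3*, *Klf4*, *Klf5*, *Klf6*, *Klf7*, *Klf9*, *Klf10*, *Klf13* and *Klf15*. They were 10 of the 55416 genes in the count table, and 16 further genes of the KLF and SP family served as comparison. C2C12 is a mouse myoblast line, here differentiated to multinucleated myotubes in low horse serum. On day 3 of differentiation the cells were transfected with an antisense locked nucleic acid (LNA) against the long non-coding RNA *Tug1* (*Tug1* KD) or with a negative control LNA (control), and the experiments were run on day 4. Myotubes then received electrical pulse stimulation (EPS), an in vitro stand-in for muscle contraction, for 3 h. The EPS 0h groups were harvested as soon as the pulses stopped and the EPS 3h groups following 3 h without pulses, while Rest wells held unconnected electrodes in the medium. Each of the 6 groups (Rest, EPS 0h and EPS 3h, each as control and as *Tug1* KD) held 6 libraries of polyadenylated RNA. All groups shared the one cell line and an LNA transfection, and the LNA lowers *Tug1* without removing it. The labels name no separate Rest group for the later harvest, so stimulation and the longer time since its start cannot be told apart at EPS 3h.

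KLF proteins bind GC-rich and CACCC-type DNA elements, the same elements that SP proteins bind, and different members activate or repress by recruiting p300/CBP, CtBP or SIN3. KLF2 and KLF4 are best known in endothelium, where flow induces them through the ERK5 and MEF2 pathway. KLF3 is a CtBP-dependent repressor, KLF10 and KLF6 are linked to TGF-beta signalling, KLF9 and KLF15 are glucocorticoid receptor targets, and KLF13 is a SIN3-recruiting repressor. In muscle, KLF15 is known for its control of amino acid and lipid use, KLF5 for its action with MYOD and MEF2 during myoblast differentiation, and KLF3 and KLF4 for effects on myogenic gene expression.

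The promoter sequences of the 5 genes whose levels carry most of the results are shown first, since KLF and SP proteins bind motifs of the kind that these promoters themselves hold. Each line is the 250 bases before the RefSeq start site, on the strand of the gene, 5′ to 3′, on GRCm38.p6. Capitals mark GGGCGG and CACCC on either strand and, in *Klf2*, the one match to the MEF2 motif. The windows are chr8:72318812-72319061 (plus strand) for *Klf2*, chr4:55532476-55532725 (minus strand) for *Klf4*, chr5:64803271-64803520 (plus strand) for *Klf3*, chr13:5861239-5861488 (plus strand) for *Klf6* and chr6:90462326-90462575 (plus strand) for *Klf15*.
Klf2: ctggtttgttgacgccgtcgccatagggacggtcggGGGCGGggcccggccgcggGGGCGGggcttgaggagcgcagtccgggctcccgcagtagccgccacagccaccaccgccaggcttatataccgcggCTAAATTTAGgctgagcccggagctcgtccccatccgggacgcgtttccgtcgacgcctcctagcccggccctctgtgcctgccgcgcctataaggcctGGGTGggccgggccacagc
Klf4: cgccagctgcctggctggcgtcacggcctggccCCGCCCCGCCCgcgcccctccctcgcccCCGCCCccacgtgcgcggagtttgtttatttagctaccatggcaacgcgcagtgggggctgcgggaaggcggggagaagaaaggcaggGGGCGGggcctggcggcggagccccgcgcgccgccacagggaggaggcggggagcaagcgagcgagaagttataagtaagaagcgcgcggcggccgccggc
Klf3: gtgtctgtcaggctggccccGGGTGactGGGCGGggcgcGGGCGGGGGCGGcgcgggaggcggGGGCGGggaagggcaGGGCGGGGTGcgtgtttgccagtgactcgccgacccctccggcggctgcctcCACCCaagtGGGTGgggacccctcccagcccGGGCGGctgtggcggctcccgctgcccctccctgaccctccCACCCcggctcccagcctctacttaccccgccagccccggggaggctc
Klf6: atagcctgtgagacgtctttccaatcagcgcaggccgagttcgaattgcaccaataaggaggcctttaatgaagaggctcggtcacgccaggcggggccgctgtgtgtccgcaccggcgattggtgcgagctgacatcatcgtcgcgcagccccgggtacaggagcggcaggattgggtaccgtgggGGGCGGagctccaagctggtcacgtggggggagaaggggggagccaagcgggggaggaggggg
Klf15: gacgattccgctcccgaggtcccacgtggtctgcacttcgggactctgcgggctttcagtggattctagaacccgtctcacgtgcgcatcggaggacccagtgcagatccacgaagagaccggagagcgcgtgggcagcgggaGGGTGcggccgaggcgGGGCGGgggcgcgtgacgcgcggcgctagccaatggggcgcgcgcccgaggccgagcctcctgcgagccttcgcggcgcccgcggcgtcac

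RefSeq held such a window for 8 of the 10 genes. GGGCGG was found on either strand in 7 of the 8 (87.5%), against 32.7% of all 32851 promoter windows of the same length. *Klf3* held 6 copies of it, *Klf4* 4, *Klf13* 3, *Klf2* 2 and *Klf6*, *Klf7* and *Klf15* 1 each, and *Klf9* held none. CACCC was found in 6 of the 8 windows (75.0%) against 52.0% of all, with 5 copies in *Klf3*. The E-box CACGTG was found in *Klf4*, *Klf6* and *Klf15*, against 6.02% of all windows. *Klf15* held it more than once, nearest to the start site at -172, counted back from the base before it. The CRE half-site TGACG was found in *Klf2*, *Klf4*, *Klf9*, *Klf13* and *Klf15*, against 17.8% of all windows. The MEF2 motif had its single match at -118 of *Klf2*, against 2.92% of all windows. CCAAT was found in 4 of the 8 windows and in 33.8% of all, the heat shock element letters GAANNTTC in 0 of the 8 and 6.69% of all, and the CArG box in 0 of the 8 and 1.47% of all. The 8 windows held 59.2% to 78.4% G and C, and the comparison windows were not matched for this. These motifs overlap in part and were chosen after the expression results were known, and a match describes letters in the window only.

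On GRCm39 the genes are spread over 10 chromosomes. *Klf2* (ENSMUSG00000055148) lies on chromosome 8 from 73072726 to 73075502, *Klf3* (ENSMUSG00000029178) on chromosome 5 from 64959875 to 64990261, and *Klf4* (ENSMUSG00000003032) on chromosome 4 from 55527139 to 55532528. *Klf5* (ENSMUSG00000005148) lies on chromosome 14 from 99536086 to 99552473, *Klf6* (ENSMUSG00000000078) on chromosome 13 from 5911481 to 5920393, and *Klf7* (ENSMUSG00000025959) on chromosome 1 from 64068606 to 64161508. *Klf9* (ENSMUSG00000033863) lies on chromosome 19 from 23118187 to 23148497, *Klf10* (ENSMUSG00000037465) on chromosome 15 from 38291703 to 38300959, *Klf13* (ENSMUSG00000052040) on chromosome 7 from 63536099 to 63588663, and *Klf15* (ENSMUSG00000030087) on chromosome 6 from 90438998 to 90452220. All are protein-coding, and the values below are reads over the whole gene. The one expressed protein-coding gene that overlaps a KLF gene is *Eps15l1*, on the opposite strand from *Klf2*. *Eps15l1* averaged 44.2 RPM over the 36 libraries, and its log2 fold change in control myotubes was -0.11 at EPS 0h (EPS 3h, -0.25), small beside that of *Klf2*.

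The libraries held 17005079 to 24181167 counts, and levels are given as RPM (reads scaled to a library of 1000000) after TMM scaling, with the mean ± SD of 6 libraries per group. At Rest, *Tug1* itself averaged 27.2 ± 3.68 RPM after *Tug1* KD and 48.3 ± 6.76 RPM with the control LNA, without overlap between the libraries. With *Tug1* KD it was 45.4 ± 11.97 RPM at EPS 0h and 56.8 ± 16.4 RPM at EPS 3h, and with the control LNA 67.3 ± 11.0 and 81.0 ± 19.5 RPM. At both times the groups overlapped over all 6 libraries, although at EPS 0h every *Tug1* KD library lay below every control library within each replicate set, and 5 of 6 *Tug1* KD libraries at EPS 3h lay below the control mean. The 10 myotube markers summed to 15075 to 20670 RPM over all libraries, against 122 to 210 RPM for the 6 proliferating myoblast markers. None of the 10 myotube markers was called with *Tug1* KD or, in control myotubes, with EPS. With EPS in *Tug1* KD myotubes *Ttn* was higher at both times, *Tnnt3* lower at EPS 0h and *Myog* lower at EPS 3h. Among the proliferating myoblast markers, *Mki67* was higher and *Ccnb1* lower with EPS at both times in control and *Tug1* KD myotubes, and *Myf5* was higher at EPS 0h in both. *Pax7* was lower at EPS 3h in both and higher at EPS 0h in *Tug1* KD, and *Ccnb1* was lower with *Tug1* KD at EPS 3h. Libraries with replicate numbers 1 to 3 stood apart from those numbered 4 to 6 in several KLF genes, so values within the sets are given beside several results that change with them.

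All 10 KLF genes passed the filter on low counts and were tested among 13995 genes. Scaled to transcript length (RPKM, RPM per kilobase of merged exons), *Klf6* was the highest of the 10 at Rest in control myotubes with 72.2 RPKM, and its libraries did not overlap those of the next gene. *Klf10* (46.6 RPKM), *Klf4* (46.3 RPKM) and *Klf5* (37.2 RPKM) followed and overlapped with their neighbours in the order. *Klf2* stood alone at 18.2 RPKM, below *Klf5* and above *Klf13*, without overlap on either side. *Klf13* (7.84 RPKM), *Klf9* (7.60 RPKM), *Klf7* (5.63 RPKM) and *Klf3* (5.51 RPKM) formed a low group of overlapping neighbours, and *Klf15* was lowest at 0.648 RPKM, again without overlap. After EPS this order changed for *Klf2*, which dropped from 5th to 7th (6.61 RPKM at EPS 0h and 4.83 RPKM at EPS 3h). *Klf13* dropped from 6th to 9th at both times (5.97 and 4.36 RPKM), where it overlapped the next higher gene. *Klf3* rose from 9th to 5th (13.8 and 11.6 RPKM). *Klf6* reached 178 RPKM at EPS 3h.

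**Figure D1:**
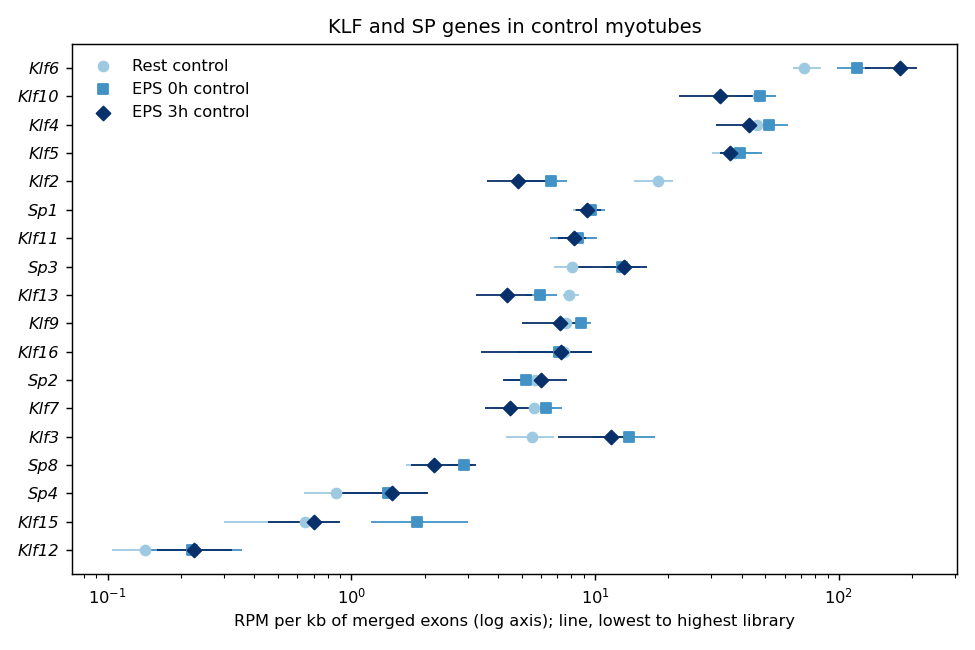
Mean level of each KLF and SP gene at or above 1 RPM in control myotubes, as RPM per kilobase of merged exons on a log axis, at Rest, EPS 0h and EPS 3h, with a line from the lowest to the highest of 6 libraries. Klf6 is the highest gene in each condition (72.2 at Rest, 178 at EPS 3h), and Klf2 moves left and Klf3 right with EPS.

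The spread of the 10 genes over the 6 groups differed. The highest group mean was 6.05 times the lowest for *Klf2*, 3.51 times for *Klf15*, 2.899 times for *Klf3* and 2.71 times for *Klf6*. The ratio was 1.80 for *Klf13*, 1.71 for *Klf10*, 1.69 for *Klf7*, 1.56 for *Klf4*, 1.35 for *Klf9* and 1.23 for *Klf5*. *Klf2*, *Klf15*, *Klf3* and *Klf6* therefore moved most between groups, and *Klf5* and *Klf9* least.

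**Figure D2:**
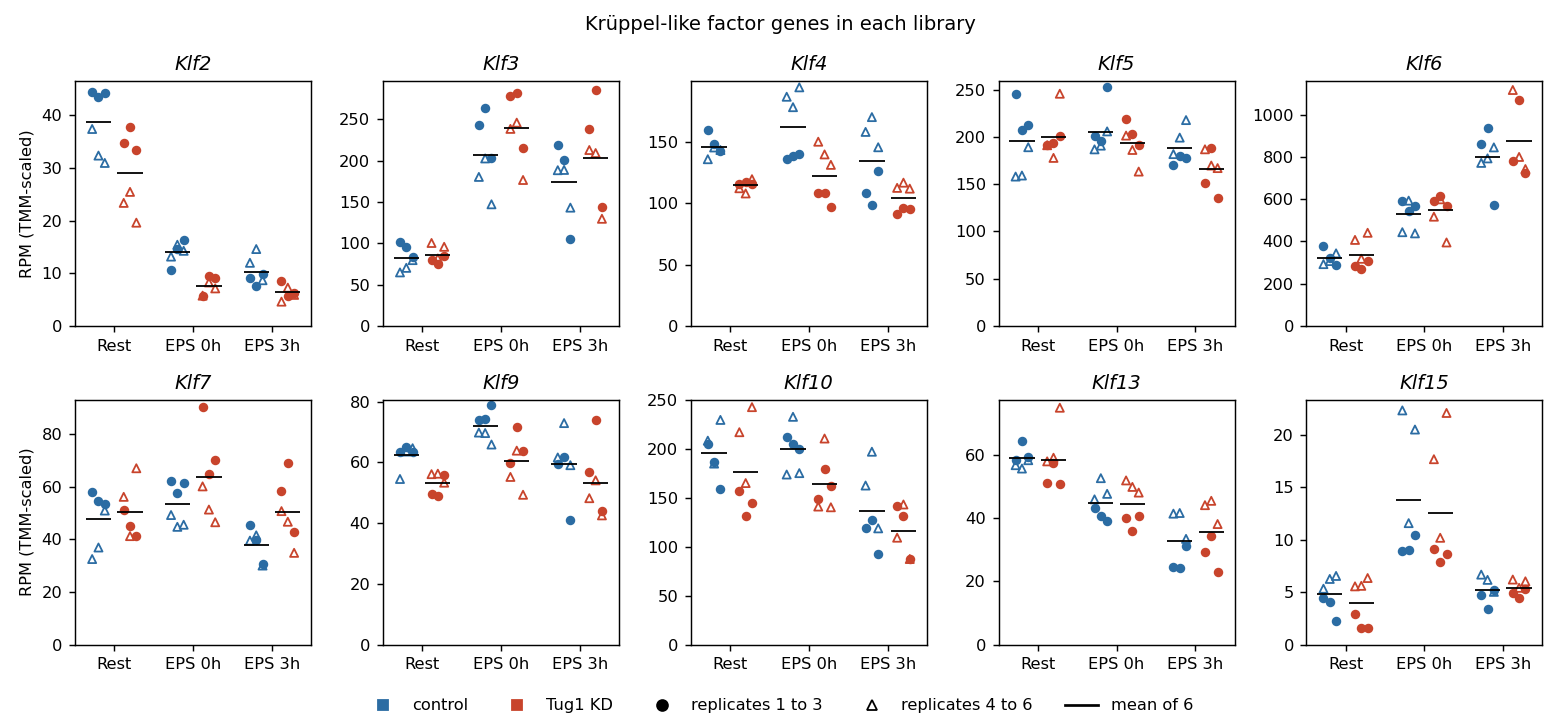
Level of each KLF gene in every library as RPM, for Rest, EPS 0h and EPS 3h in control (blue) and Tug1 KD (red) myotubes, with filled circles for replicates 1 to 3, open triangles for replicates 4 to 6 and a bar at the mean of 6. Klf2 is lower and Klf3 and Klf6 are higher after EPS with both LNAs, and Klf15 has its highest values at EPS 0h.

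EPS moved KLF genes in both directions. In control myotubes 5 of the 10 genes were called at EPS 0h (false discovery rate, FDR, under 0.05, edgeR quasi-likelihood test adjusted over all genes), where 38.9% of all genes tested were called. *Klf3*, *Klf6* and *Klf15* rose (20.5% of all genes did) and *Klf2* and *Klf13* fell (18.4%). At EPS 3h the count was again 5, against 52.0% of all genes, with *Klf3* and *Klf6* higher (26.1%) and *Klf2*, *Klf10* and *Klf13* lower (25.9%). With the stricter rule of FDR under 0.01 and an absolute log2 fold change (log2FC) over 1, 3 genes passed at EPS 0h (*Klf2*, *Klf3* and *Klf15*, against 8.43% of all genes) and 3 at EPS 3h (*Klf2*, *Klf3* and *Klf6*, against 14.3%). In *Tug1* KD myotubes the same 5 genes were called at EPS 0h in the same directions (45.6% of all genes, 24.4% higher and 21.2% lower), and at EPS 3h the same 5 with *Klf5* lower in addition (52.1% of all genes, 26.2% higher and 25.9% lower). The stricter rule again left 3 genes at each time there (10.7% and 15.5% of all genes). By the first rule the share of KLF genes called was close to that of all genes. In bulk RNA, fewer cells of a type and less RNA per cell cannot be told apart, and this holds for every change below.

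*Klf2*, the flow-induced factor that maintains quiescence in endothelium and lymphocytes, had the largest fall. Its control libraries ran from 31.0 to 44.5 RPM at Rest (median 40.4), from 10.7 to 16.4 at EPS 0h (median 14.5) and from 7.67 to 14.6 at EPS 3h (median 9.48). Every stimulated control library thus lay below every Rest control library. The log2FC was -1.46 (SE 0.166, FDR 1.25e-08) at EPS 0h, a level 2.75-fold lower, and -1.90 (SE 0.169, FDR 1.32e-11) at EPS 3h, 3.74-fold lower. At EPS 3h the mean went from 44.0 to 8.88 RPM in replicates 1 to 3 and from 33.6 to 11.8 RPM in replicates 4 to 6. Every alternative setting called this fall, with log2FC from -2.29 to -1.51. With *Tug1* KD, *Klf2* ran from 19.6 to 37.8 RPM at Rest, 5.68 to 9.57 at EPS 0h and 4.63 to 8.62 at EPS 3h, falls of 3.83-fold (FDR 3.55e-11) and 4.51-fold (FDR 8.11e-13). The further step from EPS 0h to EPS 3h had a log2FC of -0.45 (FDR 0.0632) in control myotubes, a value that passed in 7 of the 11 alternative settings (-0.63 in replicates 1 to 3 alone, FDR 0.0274, and -0.28 in replicates 4 to 6 alone, FDR 0.329). With *Tug1* KD it was -0.24 and passed in none.

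*Klf13*, a repressor that acts through SIN3, was the other gene called lower at both times. Control libraries held 55.8 to 64.7 RPM at Rest (median 58.6), 39.2 to 52.8 at EPS 0h (median 44.6) and 24.4 to 41.7 at EPS 3h (median 32.4). The Rest control libraries lay above all stimulated control libraries, and the EPS 0h and EPS 3h libraries overlapped. *Klf13* was 1.31-fold lower at EPS 0h (FDR 0.0220) and 1.79-fold lower at EPS 3h (log2FC -0.84, SE 0.139, FDR 3.89e-06), and the step between the times passed as well (log2FC -0.45, FDR 0.0201). Replicates 1 to 3 alone gave -1.17 at EPS 3h, and replicates 4 to 6 alone gave -0.55, both called. At EPS 0h they gave -0.57 (FDR 0.00237) and -0.22 (FDR 0.138), and for the step between the times -0.60 (FDR 0.00513) and -0.33 (FDR 0.0596), so that these calls were not made in replicates 4 to 6. In *Tug1* KD myotubes the log2FC was -0.40 (FDR 0.0178) and -0.71 (FDR 5.22e-05). There the step from EPS 0h to EPS 3h did not pass (log2FC -0.31, FDR 0.135) but passed in 3 of 11 alternative settings, among them the replicate number as a block (log2FC -0.32, FDR 0.0250).

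*Klf10*, an early-response gene of TGF-beta signalling, fell late. Its medians in control myotubes were 196 RPM at Rest (159 to 229.8), 203 at EPS 0h (174 to 233) and 124 at EPS 3h (92.8 to 197). Rest and EPS 0h libraries covered the same range, and the EPS 3h libraries overlapped with both. The log2FC was 0.03 at EPS 0h and -0.52 at EPS 3h (SE 0.158, FDR 0.00612, 1.43-fold lower), and the fall from EPS 0h to EPS 3h was 1.46-fold (FDR 0.0132). In *Tug1* KD myotubes *Klf10* was 1.51-fold lower at EPS 3h than at Rest (FDR 0.00192) and 1.40-fold lower than at EPS 0h (FDR 0.0296). Against Rest, the log2FC at EPS 3h in control myotubes was -0.68 in replicates 1 to 3 and -0.38, not called, in replicates 4 to 6, and with *Tug1* KD it was -0.24, not called, and -0.88. The step from EPS 0h in control myotubes was -0.84 (FDR 0.00147) in replicates 1 to 3 and -0.28 (FDR 0.398) in replicates 4 to 6. With *Tug1* KD this step passed in neither set alone (-0.44, FDR 0.0940, and -0.53, FDR 0.101).

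*Klf3*, the CtBP-dependent repressor, was higher at EPS 0h and stayed high at EPS 3h. Control libraries held 64.9 to 101.5 RPM at Rest (median 81.6), 147 to 264 at EPS 0h (median 203) and 105 to 219 at EPS 3h (median 189). No stimulated control library reached down to the Rest range. The rise was 2.51-fold at EPS 0h (log2FC 1.33, SE 0.172, FDR 1.54e-07) and 2.11-fold at EPS 3h (log2FC 1.08, SE 0.171, FDR 2.15e-06). With *Tug1* KD the rise was 2.78-fold (FDR 1.30e-08) and 2.37-fold (FDR 1.64e-07), from a Rest mean of 86.1 ± 10.0 RPM.

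*Klf6*, an injury- and growth factor-responsive member, was the only one of the 10 called higher at EPS 3h than at EPS 0h. Control libraries held 291 to 379 RPM at Rest (median 315), 438 to 593 at EPS 0h (median 555) and 573 to 938 at EPS 3h (median 819). The Rest libraries lay below all others, and EPS 0h and EPS 3h overlapped in a narrow range. *Klf6* was 1.64-fold higher at EPS 0h (FDR 6.08e-05), 2.47-fold higher at EPS 3h (log2FC 1.31, SE 0.136, FDR 4.55e-10) and 1.51-fold higher at EPS 3h than at EPS 0h (FDR 0.00151). The corresponding values with *Tug1* KD were 1.62-fold (FDR 6.22e-05), 2.59-fold (FDR 1.25e-10) and 1.59-fold (FDR 0.000353). The rise at EPS 0h in *Tug1* KD myotubes was 1.06 on the log2 scale in replicates 1 to 3 and 0.37 in replicates 4 to 6, where it did not pass (FDR 0.105).

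*Klf15*, the glucocorticoid-responsive regulator of amino acid and lipid use in muscle, rose at EPS 0h and then fell by EPS 3h. It was the least abundant of the 10, with 30 to 522 counts per library. Control libraries held 2.21 to 6.53 RPM at Rest (median 4.85), 8.90 to 22.3 at EPS 0h (median 11.0) and 3.35 to 6.66 at EPS 3h (median 5.11). The EPS 0h libraries lay above all Rest and EPS 3h control libraries. The rise at EPS 0h was 2.88-fold (log2FC 1.52, SE 0.307, FDR 0.000149), the fall to EPS 3h was 2.65-fold (FDR 0.00103), and EPS 3h and Rest were not separated (log2FC 0.12, 95% confidence interval -0.51 to 0.75, FDR 0.773). With *Tug1* KD the rise was 3.19-fold (FDR 4.08e-05) and the fall 2.34-fold (FDR 0.00416). The level depended on the replicate set, with a mean at EPS 0h in control myotubes of 9.45 RPM in replicates 1 to 3 and 18.1 RPM in replicates 4 to 6. At EPS 3h against Rest in *Tug1* KD myotubes, the log2FC of 0.45 (FDR 0.242) was 1.29 (FDR 0.000479) in replicates 1 to 3 and 0.01 in replicates 4 to 6. *Klf15* was called higher in this comparison with the replicate number as a block and with the replicate set as a term.

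**Figure D3:**
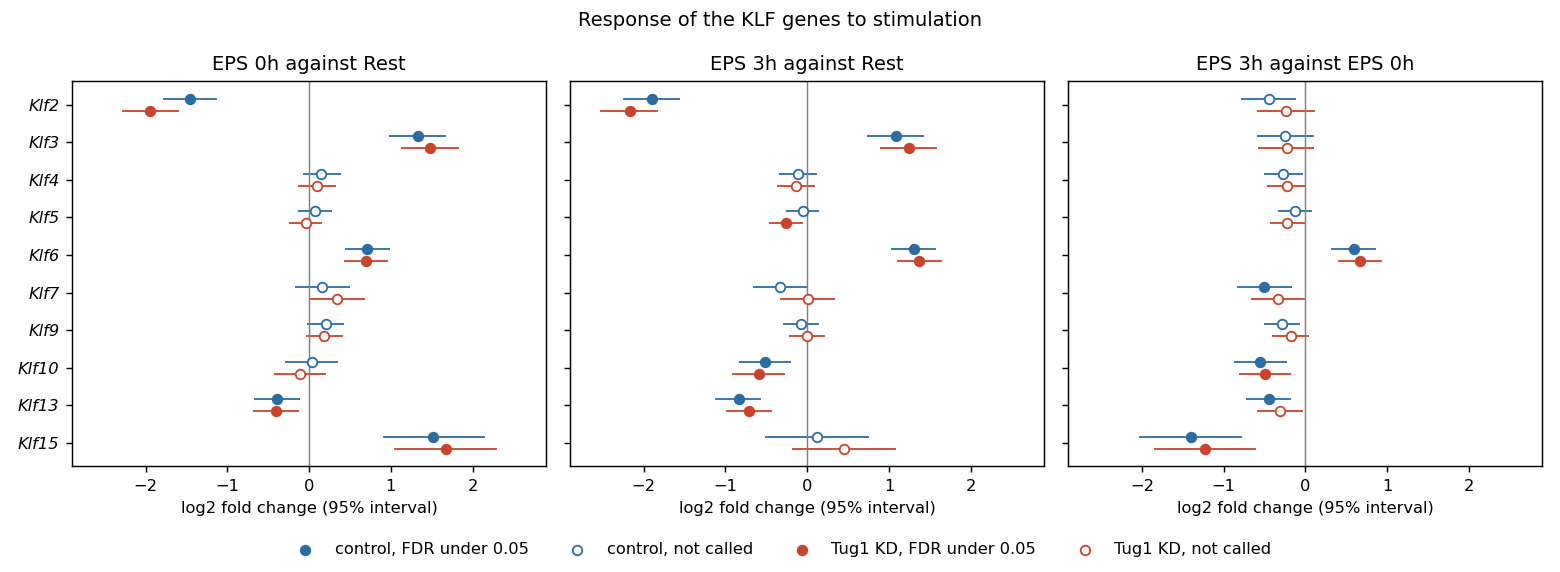
Log2 fold change of each KLF gene at EPS 0h and EPS 3h against Rest and at EPS 3h against EPS 0h, in control (blue) and Tug1 KD (red) myotubes, with 95% confidence intervals from the edgeR fit and filled points for an FDR under 0.05. Klf2 lies lowest of the 10 genes in all 4 comparisons with Rest, from -1.46 to -2.17, and Klf15 is called at EPS 0h but not at EPS 3h.

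The remaining genes responded little. *Klf7*, a neuronal and adipose-associated member, held 32.5 to 57.9 RPM at Rest, 44.8 to 62.1 at EPS 0h and 30.04 to 45.5 at EPS 3h in control myotubes. It was called between the stimulated groups, 1.41-fold lower at EPS 3h than at EPS 0h (FDR 0.0326), with -0.62 on the log2 scale (FDR 0.0196) in replicates 1 to 3 and -0.33 (FDR 0.262) in replicates 4 to 6. Against Rest its log2FC at EPS 3h was -0.33 (FDR 0.0887), which passed in 5 of 11 alternative settings, with library size only (log2FC -0.50, FDR 0.0121) and, narrowly, with the replicate number as a block (log2FC -0.32, FDR 0.0499) among them. With *Tug1* KD its log2FC at EPS 0h was 0.34 (FDR 0.0826), 0.73 (FDR 0.00163) in replicates 1 to 3 and -0.06 in replicates 4 to 6. *Klf5* held 158 to 246 RPM at Rest, 187 to 253 at EPS 0h and 171 to 218 at EPS 3h in control myotubes. No EPS comparison was called there in the fit over all libraries, but its replicate sets went opposite ways at EPS 3h. The mean went from 222 RPM at Rest to 176 in replicates 1 to 3 (called in that set alone, FDR 0.0403). In replicates 4 to 6 it went from 169 to 200 RPM and was not called. In *Tug1* KD myotubes *Klf5* was 1.20-fold lower at EPS 3h than at Rest (log2FC -0.26, FDR 0.0315), a call lost in either replicate set alone and in a fit of the 2 groups compared. *Klf9*, a glucocorticoid and thyroid hormone target, passed in no EPS comparison of the fit over all libraries, while its fall from EPS 0h to EPS 3h in control myotubes (log2FC -0.28, FDR 0.0794) passed in 4 of the 11 alternative settings. Its highest Rest control library (65.0 RPM) lay just below its lowest EPS 0h control library (65.8 RPM), while the log2FC of 0.21 had an FDR of 0.137 and passed only in the fit of the groups compared (FDR 0.0225). With *Klf9*, the groups did not overlap at EPS 0h for 6 of the 10 genes, against 22.0% of all genes tested, and at EPS 3h for 4 (*Klf2*, *Klf3*, *Klf6* and *Klf13*), against 28.9%. The count in *Tug1* KD myotubes was 3 at EPS 0h (*Klf2*, *Klf3* and *Klf15*), against 22.5% of all genes, and 4 at EPS 3h (the same 4 as in control), against 29.8%.

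*Klf4*, best known as a pluripotency factor and as an inhibitor of smooth muscle and myogenic growth, was not called against Rest at either time (log2FC 0.15, FDR 0.303, and -0.11 in control myotubes), but its replicate sets went opposite ways. At EPS 0h the control libraries held 136 to 140 RPM in replicates 1 to 3 and 178 to 195 RPM in replicates 4 to 6. The log2FC against Rest was -0.13 (FDR 0.287) in the first set and 0.40 (FDR 0.00124) in the second. At EPS 3h it was -0.42 (FDR 0.00123) in replicates 1 to 3 and 0.16 (FDR 0.120) in replicates 4 to 6. With *Tug1* KD the sets gave -0.14 (FDR 0.217) and 0.31 (FDR 0.00856) at EPS 0h, and -0.28 (FDR 0.0172) and 0.01 at EPS 3h. Against Rest, *Klf4* thus moved in a set-dependent direction after EPS, and the difference between the sets was not tested. From EPS 0h to EPS 3h it was lower within both sets and with both LNAs, without overlap within a set. This held for 5.91% of all genes in the lower direction in control and 5.84% in *Tug1* KD myotubes. That step was not called in the fit over all libraries. It passed in 4 of 11 alternative settings in control myotubes (log2FC -0.36 to -0.24) and in 1 with *Tug1* KD (-0.31 to -0.14).

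**Figure D4:**
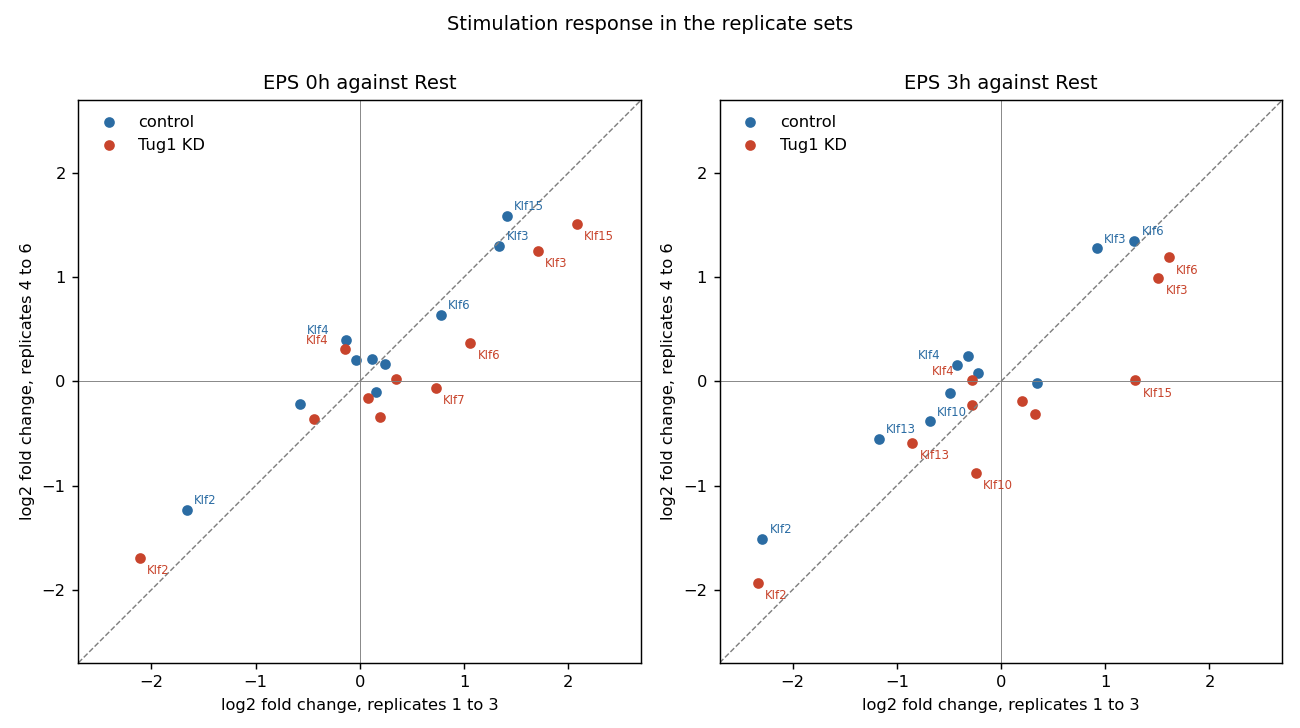
Log2 fold change of each KLF gene against Rest fitted in replicates 1 to 3 alone (horizontal axis) and in replicates 4 to 6 alone (vertical axis), at EPS 0h and EPS 3h, for control (blue) and Tug1 KD (red) myotubes, with a dashed line of equal values and names for Klf4 and for genes beyond 0.6 on either axis. Klf2 lies below 0 and Klf3 and Klf6 above 0 in both sets, whereas Klf4 in control myotubes at EPS 0h is at -0.13 and 0.40.

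Between EPS 0h and EPS 3h more KLF genes fell than rose. In control myotubes 5 genes were called (16.6% of all genes), with *Klf6* higher (9.67%) and *Klf7*, *Klf10*, *Klf13* and *Klf15* lower (6.88%). The log2FC lay below 0 in 9 of the 10, and their median was -0.36 against -0.006 over all genes tested. Over all 6 libraries only *Klf15* showed no overlap between the groups (7.29% of all genes). Within each replicate set, *Klf4*, *Klf7*, *Klf13* and *Klf15* were lower at EPS 3h without overlap, as were 5.91% of all genes. In *Tug1* KD myotubes 3 genes were called (15.7%), with *Klf6* higher (8.59%) and *Klf10* and *Klf15* lower (7.13%), and 9 of 10 values were again below 0 (median -0.24, against -0.016 over all genes). There *Klf4*, *Klf13* and *Klf15* were lower (5.84% of all genes) and *Klf6* higher (7.14%) without overlap within each replicate set.

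*Tug1* KD lowered *Klf2* and *Klf4*. At Rest 0 of the 10 genes passed, against 10.0% of all genes tested by edgeR (5.54% higher and 4.47% lower). There 3 (*Klf2*, *Klf4* and *Klf9*) had an unadjusted p under 0.05, against 21.3% of all genes, and DESeq2 called 1 (*Klf4*, 11.7% of all genes) and limma-voom 1 (*Klf2*, 10.4%). At EPS 0h 2 genes passed, both lower (14.3% of all genes, 8.25% higher and 6.07% lower), and at EPS 3h 2 genes passed, both lower (11.5% of all genes, 6.38% higher and 5.11% lower). These were *Klf2* and *Klf4* each time, and 3.55% of all genes tested were called lower at both EPS 0h and EPS 3h. No KLF gene was called higher in *Tug1* KD myotubes at any of the 3 conditions in this fit, while *Klf7* was at EPS 3h with the replicate number as a block.

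For *Klf2* the *Tug1* KD libraries at EPS 0h (5.68 to 9.57 RPM, median 7.70) all lay below the control libraries (10.7 to 16.4 RPM, median 14.5). It was the one KLF gene without overlap in that comparison, as were 3.10% of all genes in the lower direction. The log2FC was -0.90 (SE 0.170, 95% confidence interval -1.24 to -0.55, FDR 0.000253), a level 1.86-fold lower. At EPS 3h it was -0.69 (SE 0.174, FDR 0.00674), 1.61-fold lower, with overlapping libraries, and at Rest -0.42 (interval -0.74 to -0.09, FDR 0.105), which passed in 4 of 11 alternative settings, the replicate number as a block among them (log2FC -0.43, FDR 0.0344). Within each replicate set every *Tug1* KD library at Rest lay below every control library, as for 6.67% of all genes. The 2 replicate sets gave -0.77 and -1.01 at EPS 0h but -0.36 (FDR 0.298) and -0.98 (FDR 0.00201) at EPS 3h, so that the call at EPS 3h was made in replicates 4 to 6 and not in replicates 1 to 3.

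For *Klf4* the size of the difference was similar in the 3 conditions. At Rest the control libraries held 136 to 160.1 RPM (median 145) and the *Tug1* KD libraries 108 to 119.7 (median 116), without overlap, as for 3.72% of all genes in the lower direction. At EPS 0h the ranges were 136 to 195 in control (median 159) and 97.4 to 150.3 in *Tug1* KD (median 120.1), and at EPS 3h 98.6 to 170.3 (median 136) and 91.7 to 117 (median 103.99). The ranges overlapped at both EPS times over all 6 libraries, but within each replicate set every *Tug1* KD library lay below every control library at Rest, EPS 0h and EPS 3h. This held for 1.69% of all genes tested in the lower direction. The log2FC was -0.35 at Rest (SE 0.116, FDR 0.0507), -0.40 at EPS 0h (SE 0.116, FDR 0.0143, 1.32-fold lower) and -0.37 at EPS 3h (SE 0.116, FDR 0.0307, 1.29-fold lower). At Rest *Klf4* passed in 8 of 11 alternative settings, the replicate number as a block among them (log2FC -0.35, FDR 0.00671). The call at EPS 0h was lost in the fit of only the groups compared (log2FC -0.41, FDR 0.0606). At EPS 3h the call was lost in that fit (log2FC -0.38, FDR 0.116), with no filter on low counts (log2FC -0.40, FDR 0.0647) and in replicates 1 to 3 alone (log2FC -0.23, FDR 0.153).

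The other 8 genes were not called with *Tug1* KD in the fit over all libraries. At EPS 0h *Klf3* and *Klf7* were higher and *Klf9* and *Klf10* lower with *Tug1* KD in every pair of same-numbered libraries. None of these passed at EPS 0h in any alternative setting. *Klf7* was also higher in every pair at EPS 3h. How many of all genes tested moved one way in every pair was not counted at either time. *Klf7* at EPS 3h came nearest in the higher direction, with 34.9 to 69.0 RPM in *Tug1* KD against 30.04 to 45.5 in control libraries (log2FC 0.41, interval 0.08 to 0.75, FDR 0.102), and it passed with the replicate number as a block (log2FC 0.40, FDR 0.0419). *Klf9* had log2FC of -0.23, -0.25 and -0.15 at Rest, EPS 0h and EPS 3h without passing. Within each replicate set its *Tug1* KD libraries at EPS 0h all lay below the control libraries, as for 9.87% of all genes. At Rest *Klf9* passed in the fit of only the groups compared (log2FC -0.22, FDR 0.0482). At EPS 3h *Klf9* passed in replicates 4 to 6 alone (log2FC -0.42, FDR 0.0205), with 0.11 (FDR 0.745) in replicates 1 to 3. *Klf10* at EPS 3h gave 0.08 in replicates 1 to 3 and -0.49 (FDR 0.139) in replicates 4 to 6, and *Klf15* at Rest gave -0.80 (FDR 0.0791) and -0.05. *Klf3* gave 0.06, 0.21 and 0.22. Over the 11 alternative settings at Rest, the log2FC ran from -0.24 to 0.37 for *Klf3* and from -0.27 to 0.45 for *Klf7*. It ran from -0.19 to 0.28 for *Klf5*, -0.21 to 0.31 for *Klf6* and -0.2 to 0.17 for *Klf13*, and was never called. *Klf7* libraries at Rest held 41.3 to 51.1 RPM with *Tug1* KD against 53.3 to 57.9 in control in replicates 1 to 3. In replicates 4 to 6 they held 41.2 to 67.1 against 32.5 to 51.0 RPM. The medians over the 10 genes were -0.08 at Rest, -0.11 at EPS 0h and -0.05 at EPS 3h, against -0.027, -0.002 and -0.012 over all genes tested.

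**Figure D5:**
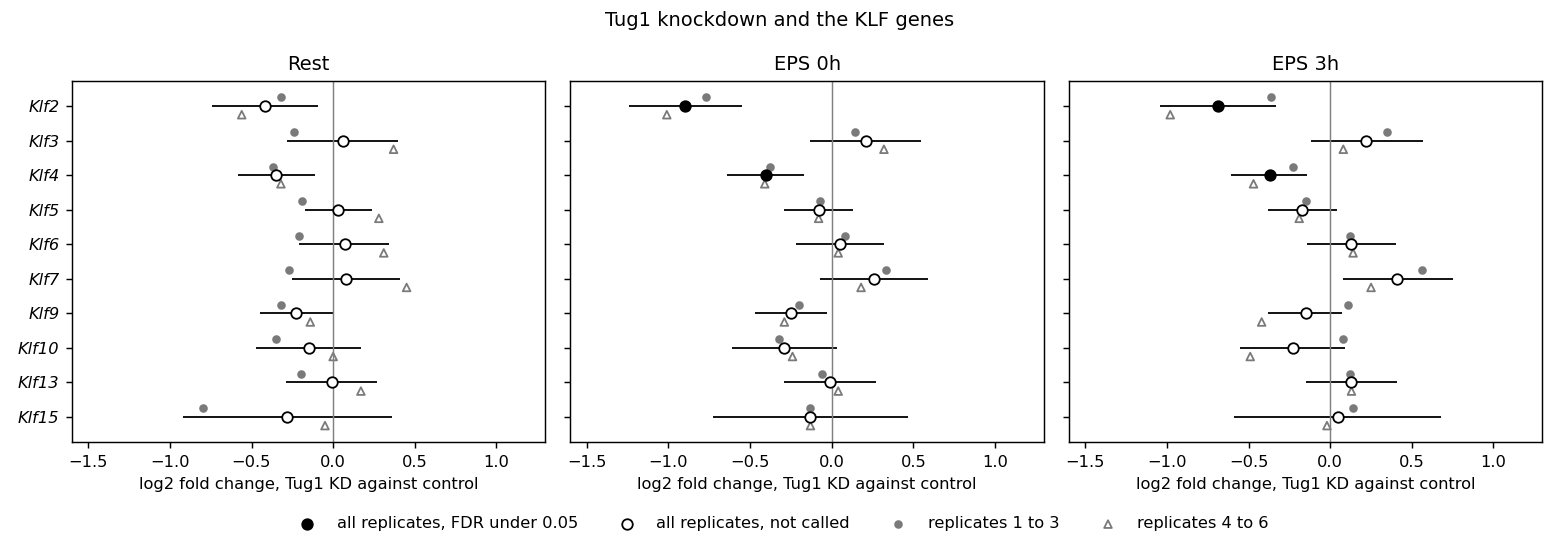
Log2 fold change of each KLF gene in Tug1 KD against control myotubes at Rest, EPS 0h and EPS 3h, with 95% confidence intervals from the edgeR fit, filled black points for an FDR under 0.05, and grey circles and triangles for fits of replicates 1 to 3 and 4 to 6 alone. Klf2 and Klf4 lie below 0 in all 3 conditions, and the Klf2 difference is -0.42 at Rest and -0.90 at EPS 0h.

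Whether *Tug1* KD altered the response to EPS was tested as an interaction. None of the 10 genes passed at EPS 0h or EPS 3h (FDR 1.00 for each gene), where the edgeR test called 0 of 13995 genes at EPS 0h (0.00%) and 1 at EPS 3h (0.00715%). At an unadjusted p under 0.05 there were 324 genes and 1 KLF gene at EPS 0h, and 430 genes and 0 KLF genes at EPS 3h. DESeq2 and limma-voom called 0 KLF genes. The single gene was *Klf2*, whose fall at EPS 0h was larger in *Tug1* KD myotubes by -0.48 on the log2 scale (interval -0.95 to -0.01), with -0.27 (interval -0.75 to 0.21) at EPS 3h. For *Klf4* the interaction was -0.06 (interval -0.39 to 0.27) and -0.03 (-0.36 to 0.31), for *Klf3* 0.15 (-0.33 to 0.64) and 0.16 (-0.32 to 0.65), and for *Klf6* -0.02 (-0.40 to 0.37) and 0.07 (-0.32 to 0.45). The widest intervals were those of *Klf15*, from -0.72 to 1.02 at EPS 0h and from -0.57 to 1.22 at EPS 3h, wide enough to hold a sizeable change in its response in either direction.

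Of the 16 other KLF and SP genes, 8 were abundant enough to be tested (*Klf11*, *Klf12*, *Klf16*, *Sp1*, *Sp2*, *Sp3*, *Sp4* and *Sp8*). With *Tug1* KD, *Sp8* was called lower at Rest (11.3 ± 2.37 to 5.93 ± 1.06 RPM, log2FC -0.93, FDR 2.11e-05), at EPS 0h (log2FC -0.90, FDR 2.12e-05) and at EPS 3h (log2FC -0.61, FDR 0.00386). This is 12.5% of the 8 each time, against 4.47%, 6.07% and 5.11% of all genes called lower. No other gene of the 8 passed, but *Klf12* did with the replicate number as a block, higher by 0.70 at EPS 0h (FDR 0.00725) and by 0.61 at EPS 3h (FDR 0.0239), against 0.72 (FDR 0.0575) and 0.64 (FDR 0.111) without it. With EPS in control myotubes, *Sp3*, a ubiquitous factor of the same GC-box motif, rose from 58.9 to 94.8 and 96.3 RPM (log2FC 0.69 and 0.71). *Sp4* (0.71 and 0.77) was also called at both times, *Sp8* (0.41) at EPS 0h and *Klf12* (0.66) at EPS 3h. In replicates 1 to 3 alone, *Sp8* at EPS 0h (0.24, FDR 0.364) and *Klf12* at EPS 3h (0.59, FDR 0.113) did not pass. In replicates 4 to 6 alone, *Sp4* at EPS 0h did not (0.46, FDR 0.148). At EPS 0h *Klf12* had a log2FC of 0.63 (FDR 0.0610), or 0.60 (FDR 0.0167) with the replicate number as a block. *Klf12* rose in *Tug1* KD myotubes by 1.10 at EPS 0h (FDR 0.000853) and 1.05 at EPS 3h (FDR 0.00109), and its interaction did not pass. In replicates 1 to 3 alone the rises of *Klf12* were 1.69 and 1.49, and in replicates 4 to 6 alone they were 0.38 (FDR 0.274) and 0.57 (FDR 0.0673) and did not pass. Of the 8, 4 were called higher at each time in *Tug1* KD myotubes (against 24.4% and 26.2% of all genes), beside 3 of the 8 at each time in control (37.5%, against 20.5% and 26.1%). These were *Klf11* and *Sp3* as well as *Klf12* at both times, with *Sp8* at EPS 0h and *Sp4* at EPS 3h. *Sp4* had 0.53 (FDR 0.0519) at EPS 0h in *Tug1* KD myotubes, and passed with the replicate number as a block (0.47, FDR 0.0390). *Klf11* had 0.41 (FDR 0.00512) and 0.35 (FDR 0.0143) in *Tug1* KD myotubes and 0.04 and -0.01 in control, and its interaction did not pass. The *Tug1* KD values of *Klf11* were 0.57 and 0.54 in replicates 1 to 3 alone. In replicates 4 to 6 alone they were 0.26 (FDR 0.171) and 0.16 (FDR 0.370) and did not pass. *Sp1*, the founding member of the SP group, had log2FC of 0.02 and -0.03 in control myotubes.

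Genes known to regulate, partner or follow the KLF proteins were counted in lists. For comparison, 20.5% of all genes rose and 18.4% fell at EPS 0h in control myotubes, and 26.1% rose and 25.9% fell at EPS 3h. Of 12 co-repressors and co-activators, 5 rose and 3 fell at EPS 0h (41.7% and 25.0%), 3 rose and 3 fell at EPS 3h (25.0% each), and with *Tug1* KD only *Ncor1* was called, higher at EPS 0h (8.33% of the list, against 8.25% of all genes). *Crebbp*, which encodes the CBP acetyltransferase, rose in *Tug1* KD myotubes by 1.14 (FDR 5.63e-07) at EPS 0h and 1.15 (FDR 2.63e-07) at EPS 3h, and in control myotubes by 0.80 (FDR 0.000146) and 0.88 (FDR 2.23e-05). Of 4 ubiquitin ligases, *Fbxw7* was higher in *Tug1* KD at all 3 conditions (25.0% of the list, against 5.54%, 8.25% and 6.38% of all genes) and rose with EPS, while *Fbxo32* and *Smurf1* fell at EPS 3h.

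Upstream of *Klf2* and *Klf4*, 11 genes of the ERK5 and MEF2 list were tested. *Tug1* KD raised 2 of them at Rest, 5 at EPS 0h and 5 at EPS 3h and lowered none, which is 18.2%, 45.5% and 45.5% of the list against 5.54%, 8.25% and 6.38% of all genes. The raised genes held the activators *Mef2c* and, at the EPS times, *Mef2d* and the ERK5 kinase gene *Map2k5*, but also the MEF2 repressors *Hdac4* in all 3 conditions and *Hdac9* at both EPS times. *Mef2c*, which encodes a muscle transcription factor of the MEF2 family, was at 94.5 ± 23.3 RPM in control and at 198.8 ± 32.6 RPM in *Tug1* KD libraries at Rest (log2FC 1.07, FDR 0.000796). It was higher by 1.05 at EPS 0h (FDR 0.000748). Binding to the *Klf2* promoter was not measured. *Map3k2*, a kinase above ERK5, rose with EPS in control myotubes from 49.2 ± 5.36 to 100.6 ± 13.7 RPM at EPS 0h (log2FC 1.03) and by 1.04 at EPS 3h, while *Klf2* fell. *Mapk7*, which encodes ERK5, *Map2k5*, *Mef2d* and *Hdac7* fell at both times, as *Klf2* did, *Mapk7* with log2FC of -0.64 (FDR 0.000298) and -0.78 (FDR 1.08e-05). *Hdac9*, a repressor of MEF2, was higher than at Rest in *Tug1* KD myotubes by 1.35 at EPS 0h and by 1.16 at EPS 3h. In control myotubes it was higher by 0.80 (FDR 0.00357) and 0.81 (FDR 0.00191). In control myotubes 3 genes of the list rose and 4 fell at EPS 0h (27.3% and 36.4%, against 20.5% and 18.4% of all genes), and 2 rose and 4 fell at EPS 3h (18.2% and 36.4%, against 26.1% and 25.9%).

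Downstream, 3 of 5 listed targets of KLF2 and KLF4 were tested. *Thbd*, thrombomodulin, which KLF2 induces in endothelium, rose at EPS 0h in control myotubes from 19.0 ± 2.95 to 47.7 ± 16.7 RPM (log2FC 1.33, FDR 9.16e-06) and in *Tug1* KD myotubes by 1.60 (FDR 4.29e-07), when *Klf2* was lower. The other 2, *S1pr1* and *Cdkn1a*, moved as *Klf2* did where they were called with EPS. *S1pr1*, a sphingosine phosphate receptor gene, fell at EPS 3h in control myotubes (log2FC -0.53, FDR 0.0331), and with *Tug1* KD both fell at both times, *Cdkn1a* by 0.44 on the log2 scale at EPS 0h. *Cdkn1a* was higher with *Tug1* KD at Rest (log2FC 0.29, FDR 0.0381). Since *Klf2* and *Thbd* are known from endothelium, endothelial markers were summed. The sum over 5 markers rose with EPS in control myotubes, from a median of 2.58 RPM at Rest to 4.82 at EPS 0h and 10.3 at EPS 3h, and with *Tug1* KD from 1.74 to 4.74 and 11.1 RPM. *Kdr* accounted for the largest rise, in control myotubes from 0.168 RPM at Rest to 4.48 at EPS 3h (log2FC 4.67, FDR 4.89e-12), and *Tek* and *Pecam1* rose too. *Klf2* fell as these markers rose. The sum over 4 adipocyte markers, none of them abundant enough to be tested, also rose with EPS, from a median of 0.196 RPM at Rest to 1.00 and 2.07 in control myotubes and from 0.105 to 1.11 and 2.38 with *Tug1* KD. The 4 macrophage markers summed to at most 6.78 RPM in any library, with *Adgre1* at 0 in 4 of the 6 groups. *Cd68*, the one tested, was lower with *Tug1* KD at Rest (1.88 ± 0.281 against 3.83 ± 0.992 RPM, log2FC -1.02, FDR 0.000116) and at EPS 3h (log2FC -0.72, FDR 0.00901), and lower with EPS in control myotubes (log2FC -0.44 and -0.69). It was not called with *Tug1* KD at EPS 0h (log2FC -0.27, FDR 0.355) or with EPS in *Tug1* KD myotubes (log2FC 0.31 and -0.39, FDR 0.161 and 0.0875). The part of these markers in the *Klf2* result was not tested.

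Of 10 listed KLF15 targets in muscle, 0 rose and 3 fell at EPS 0h in control myotubes (*Gpt*, *Prodh* and *Trim63*), when *Klf15* was at its highest, and 0 rose and 6 fell at EPS 3h. Over all genes tested, 18.4% fell at EPS 0h and 25.9% at EPS 3h. *Gpt*, alanine aminotransferase, was lower in *Tug1* KD at all 3 conditions, at EPS 3h with 15.4 ± 2.56 against 31.1 ± 5.32 RPM (log2FC -1.02, FDR 2.03e-06), while *Klf15* itself did not pass with *Tug1* KD. Of 11 genes of the glucocorticoid receptor list, which includes regulators of *Klf9* and *Klf15*, 3 rose and 3 fell at EPS 0h in control myotubes (27.3% each, against 20.5% and 18.4% of all genes), and 3 rose and 4 fell at EPS 3h (27.3% and 36.4%, against 26.1% and 25.9%). With *Tug1* KD 3 were lower at each condition (27.3% of the list, against 4.47%, 6.07% and 5.11% of all genes). These were *Cebpd* and *Per1* each time, with *Errfi1* at Rest and EPS 0h and *Sgk1* at EPS 3h, while *Fkbp5* was higher at EPS 0h.

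Of 13 genes of the TGF-beta list, 7 rose and 2 fell at EPS 0h in control myotubes (53.8% and 15.4%, against 20.5% and 18.4% of all genes), and 8 rose and 4 fell at EPS 3h (61.5% and 30.8%, against 26.1% and 25.9%). With *Tug1* KD 3, 2 and 1 were higher and 0 lower at Rest, EPS 0h and EPS 3h (23.1%, 15.4% and 7.69%, against 5.54%, 8.25% and 6.38% of all genes). *Smad7*, the inhibitory SMAD that KLF10 is known to repress, rose from 45.3 ± 6.07 to 101.2 ± 31.8 and 130.2 ± 35.0 RPM in control myotubes (log2FC 1.16 and 1.53), while *Klf10* had a log2FC of 0.03 at EPS 0h and was lower at EPS 3h. *Tgfb2* rose by 1.71 and *Tgfb3* fell by 1.02 on the log2 scale at EPS 3h. Of 7 myogenic factors that act with KLF5, 3 rose (*Mef2a*, *Myf5* and *Myf6*) and 1 fell (*Mef2d*) at EPS 0h in control myotubes. This is 42.9% and 14.3%, against 20.5% and 18.4% of all genes. At EPS 3h *Myf6* was higher and *Mef2d* and *Myod1* lower (14.3% and 28.6%, against 26.1% and 25.9%). *Myf6* rose at EPS 0h in control myotubes from 2.12 ± 0.541 to 6.94 ± 2.28 RPM (log2FC 1.71) and *Myf5* by 1.31, while *Klf5* was not called. *Myf6* was lower in *Tug1* KD at all 3 conditions, with log2FC of -1.86, -1.34 and -1.45, and *Myod1* was lower at Rest. *Mef2c* was higher with *Tug1* KD at all 3 conditions and *Mef2d* at EPS 0h and EPS 3h. The higher shares were 14.3%, 28.6% and 28.6% (5.54%, 8.25% and 6.38% of all genes). The lower shares were 28.6%, 14.3% and 14.3% (4.47%, 6.07% and 5.11% of all genes).

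Across the 36 libraries, the genes whose log2 level followed each KLF gene most closely were found by Pearson's r over the 10623 genes whose mean level reached 5 RPM. These are descriptions, since the libraries share groups and depth. The closest were *Togaram1* (r = 0.98) and *Slc5a3* (0.978) for *Klf3*, *Fam91a1* (0.981) and *Prkx* (0.968) for *Klf6*, and *Btbd17* (0.963) and *Coro6* (0.951) for *Klf2*. *Klf13* was followed by *Abl1* (0.948) and *Arf3* (0.942), *Klf15* by *Chac1* and *Herpud1* (0.904 each), and *Klf4* by *Plekhh3* (0.899) and *Tent5b* (0.888). *Klf7* was followed by *Mtbp* (0.892) and *Cep97* (0.89), *Klf9* by *Zfp318* (0.873) and *Pdik1l* (0.836), and *Klf10* by *Bhlhe40* (0.871) and *Peg13* (0.85). *Klf5* had the loosest matches, *Smad5* (0.791) and *Tcaim* (0.713). Among the KLF genes themselves, *Klf2* ran opposite to *Klf6* (r = -0.84) and *Klf3* (-0.80), and *Klf3* ran with *Klf6* (0.77).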

How the data were processed

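Gene counts were deposited by the authors as raw counts, unnormalised, for 36 libraries of C2C12 myotubes. Per the labels and the study's methods, a stranded polyA kit was used, and the submitters' processing notes name fastp 0.14.1, FastQC 0.11.7, STAR 2.5 and GRCm39. The strand setting of the counting is not given in the sources used here. Of 55416 genes in the table, 1492 had no gene name and held 0.0327% of counts. The per-sample files held the same counts as the table for all 36 libraries.

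The analysis used R 4.3.3 and its package edgeR 4.0.16. A gene was kept when 12 or more libraries reached 1 RPM (13995 genes), TMM factors were computed, and one robust quasi-likelihood model was fitted over all 6 groups, without a block. SE is the absolute log2FC over the square root of F, and confidence intervals are 95%. FDR is the Benjamini-Hochberg value over all genes tested. DESeq2 1.42.0, limma 3.58.1 (limma-voom), other scalings, other filters, the replicate number or set as a term and fits on fewer libraries were alternatives. The script was tested on simulated data.

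The study's methods describe 2 independent experiments with 3 wells per group. The labels do not say which replicate numbers belong to which experiment, and p-values measure the spread between wells of 1 cell line. Same-numbered libraries deviated together (every r over 0.1) for *Tug1* KD against control at EPS 0h (r 0.626 to 0.754) and EPS 3h (0.217 to 0.743). The same held for EPS 0h and EPS 3h against Rest in control myotubes. It also held for EPS 0h against Rest and EPS 3h against EPS 0h in *Tug1* KD myotubes. Each deviation was taken from the mean of the 6 libraries of a group, so a difference between the replicate sets also raises r. Differently numbered libraries were not compared, so these r do not show that the numbers pair the wells.

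The members and gene lists were chosen with earlier results of these data known. Genes named are the 10 KLF genes, *Tug1*, the other KLF and SP genes tested, list genes with FDR under 0.05 and an absolute log2FC over 1 (at most 3 per list and comparison), and the 2 genes closest to each KLF gene. Other list genes, and *Eps15l1*, were named after their values were seen. Annotation was GENCODE on GRCm39, in which 125 of 125 list genes were matched, and promoters came from RefSeq on GRCm38.p6 and were searched on both strands. The table for all libraries was used, with total counts of 17005079 to 24181167 (median 19439667.5).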

Additional observations from a re-analysis of the deposited data

Results flagged for a closer look

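Among the 60 sets of 6 libraries (10 genes in 6 groups), 4 held a library far from the rest by Dixon's gap test, where chance gives about 1 in 20. *Klf5* in Rest *Tug1* KD myotubes reached 246 RPM in replicate 6, and *Klf13* in the same library reached 75.1 RPM. *Klf5* in EPS 0h control myotubes reached 253 RPM in replicate 3. *Klf9* in Rest control myotubes was 54.5 RPM in replicate 4.

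For *Klf4* every library of one replicate set moved against Rest in one direction and every library of the other set in the opposite direction, in 3 comparisons. The log2FC in replicates 1 to 3 and 4 to 6 was -0.13 and 0.40 at EPS 0h in control myotubes, -0.42 and 0.16 at EPS 3h in control myotubes, and -0.14 and 0.31 at EPS 0h in *Tug1* KD myotubes. The difference between the sets was not tested.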

How the results depend on the processing

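Of 1210 values (110 gene-by-comparison results under 11 settings), 1139 kept their side of the threshold, 17 lost a call, 54 gained one and 0 called values changed sign. Of the values not called, 63 differed in sign from the fit over all libraries, 41 of them in fits of 1 replicate set. With *Tug1* KD at Rest, where edgeR called 0 genes, library size only, upper quartile factors, replicates 1 to 3 alone, DESeq2 and limma-voom each called 1, and the replicate block, the replicate set as a term, replicates 4 to 6 alone and the fit of only the groups compared each called 2. At EPS 0h the fit of only the groups compared called 1 (*Klf4* lost). At EPS 3h no filter on low counts and only the groups compared called 1 each (*Klf4* lost), replicates 1 to 3 alone called 0, and the replicate block called 3. For EPS 3h against Rest in control myotubes replicates 1 to 3 alone called 8 in place of 5. For EPS 3h against EPS 0h in control myotubes library size only and the replicate block called 8 in place of 5 and replicates 4 to 6 alone called 2. In *Tug1* KD myotubes library size only called 5 in place of 3. Library size only shifted the median of all genes by -0.168 at EPS 3h in control and -0.164 in *Tug1* KD myotubes. The cause of these changes was not tested.

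With the replicate number as a block, *Klf2* (log2FC -0.43, FDR 0.0344) and *Klf4* (log2FC -0.35, FDR 0.00671) passed with *Tug1* KD at Rest, as did *Klf2*, *Klf4* and *Klf9* for EPS 3h against EPS 0h in control myotubes and *Klf15* at EPS 3h against Rest in *Tug1* KD myotubes (log2FC 0.56, FDR 0.0174). In 3 comparisons r between same-numbered libraries was not over 0.1 for every number. These were *Tug1* KD at Rest (replicate 4, r = -0.096), EPS 3h against Rest in *Tug1* KD (replicate 2, 0.072) and EPS 3h against EPS 0h in control myotubes (replicate 3, -0.082). *Klf15* had the lowest depth, at 30 counts in its lowest library.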
